A study of Mus musculus with 26 samples.

Results

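The replication-dependent histone genes are the clustered genes that supply the core histones H2A, H2B, H3 and H4 and the linker histone H1 for new chromatin. They were taken as every gene of the deposited count table whose symbol begins, case ignored, with Hist1h, Hist2h, Hist3h or Hist4h, and 1 symbol marked as a pseudogene was dropped. This gave 69 of the 55391 genes of the table, with 6 H1, 20 H2A, 18 H2B, 12 H3 and 13 H4 members. In the GENCODE M21 annotation of the mouse genome GRCm38, 56 of them lie on chromosome 13, 10 on chromosome 3, 2 on chromosome 11 and 1 on chromosome 6. The annotation lists 2 members, Hist1h2aj and Hist1h2al, as pseudogenes.

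The study followed 3 murine lung cancer lines in culture, EA1, EA2 and EA3, all from C57BL/6 mice and all driven by an EML4-ALK fusion made with an adenovirus that carried Cas9 and guide RNAs against Eml4 and Alk. Each line is 1 derivation, so a difference between lines cannot be told apart from a difference between derivations. Cells grew in RPMI-1640 with 10% serum and received alectinib, an inhibitor of the ALK kinase, at 100 nM or its solvent DMSO at 0.1%, and poly(A)-selected RNA was sequenced on days 1, 2, 3 and 5. The days are those of the sample titles and times, whereas the treatment notes in the labels name days 1, 3, 5 and 7, so the day of a library carries that doubt. Each combination of line, treatment and day is 1 library, which gives 24, so the 4 days of a line and treatment stand in for replicates and the p-values measure the spread between days.

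A further pair of libraries is labelled EA3 day 7. Across the genes that passed a filter on low counts, the day 7 DMSO library correlated with EA2 DMSO libraries at 0.942 to 0.977 and with EA3 DMSO libraries at 0.859 to 0.890. The day 7 alectinib library correlated with EA2 alectinib libraries at 0.960 to 0.988 and with EA3 alectinib libraries at 0.852 to 0.871. Both go against their label and were left out of the values below unless stated. Over all 26 libraries the totals ran from 5780062 to 11732401 counts, and the smallest was the EA2 alectinib library of day 2. Levels are given as CPM, counts scaled to library size with edgeR's TMM factors, always in the order of days 1, 2, 3 and 5.

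Replication-dependent histone mRNAs are made mainly in S phase, when DNA is copied. Unlike other mRNAs of animal cells they normally carry no poly(A) tail and end a few bases past a conserved stem-loop, which is bound by the stem-loop binding protein Slbp. Some of the genes also have a poly(A) site downstream, and the polyadenylated form is known from differentiating cells and cells outside the cycle. Selection on oligo-dT keeps RNA with a poly(A) tail, and tailless mRNA enters such libraries to an extent that was not measured here. In bulk RNA, fewer cells that express a gene and less RNA per cell cannot be told apart.

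The stem-loop was searched in the longest coding transcript of each member as a run of 16 bases past the stop codon that starts with GG, ends with CC, and pairs 6 bases on either side of a 4-base loop that opens with T. Such a run was present in 45 of the 69 members, and 25 of these had the same 16 bases. It could not be found in 13 members whose annotation holds no base past the stop codon. The same holds for Hist1h2af and Hist1h2ah, with 1 and 2 such bases, and for the annotated pseudogenes. For these members a lack of the stem-loop is not shown. The following stretches, from GENCODE M21 transcripts and GRCm38, are those of the H1, H2A, H3 and H4 members with the highest counts, shown because mRNAs that end just past them carry no poly(A) tail, with the stem-loop in capitals.

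Hist1h1c (chr13:23739507-23739532, plus strand): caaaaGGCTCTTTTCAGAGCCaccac
Hist3h2a (chr11:58955167-58955192, plus strand): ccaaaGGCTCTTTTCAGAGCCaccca
Hist1h3c (chr13:23745042-23745067, minus strand): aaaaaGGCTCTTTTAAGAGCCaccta
Hist1h4i (chr13:22040961-22040986, minus strand): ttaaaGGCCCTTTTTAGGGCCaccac

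The 16 bases of Hist1h1c and Hist3h2a are those that 25 members share, whereas the form of Hist1h3c occurs in 6 members and that of Hist1h4i in 2. No stem-loop was found in the annotated transcripts of Hist1h2bc and Hist2h2be. RefSeq ends its model of Hist1h1c (named H1f2 there) at base 23739531 of chromosome 13, within the stretch printed above, whereas the GENCODE model runs on for 836 bases to 23740367. The RefSeq model of Hist3h2a (H2aw) ends at base 58955192 of chromosome 11, the last base of its stretch, and the GENCODE model runs 1638 bases further. Counts per gene do not tell which of the ends a transcript had.

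Very little of the libraries came from these genes. All 69 members together took 0.00312% to 0.00978% of the counts of a DMSO library and at most 0.0415% of those of an alectinib library. Of the counts of the members over the 24 libraries together, to which the alectinib libraries gave most, 50.8% fell on Hist1h1c and 25.7% on Hist1h2bc, so that these 2 genes hold 76.5%. In single libraries they held 82.5% to 87.9% in EA1 with alectinib, but 40.7% to 47.9% in EA2 with DMSO and 34.4% to 74.3% in EA3 with DMSO. By class over the same 24 libraries, H1 held 52.9%, H2B 33.9%, H4 6.86%, H2A 3.19% and H3 3.16%, but the order of H1 and H2B differed by group. H1 held more than H2B in both groups of EA1 and in EA2 with alectinib (64.7% against 27.4% in EA1 with alectinib), whereas H2B held 44.1% and H1 33.2% in EA3 with DMSO, 49.5% and 38.9% in EA3 with alectinib, and 36.3% and 35.7% in EA2 with DMSO. Per kilobase of exon, the mean level over the 24 libraries was 39.0 CPM for Hist1h1c, 26.9 for Hist1h2bc, 6.25 for Hist1h4i and 2.31 for Hist2h2be.

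At most 3 counts in every one of the 24 libraries, the floor of detection used here, were found for 24 members, and 7 of these had none at all. They are Hist1h1a and Hist1h1t among the H1 genes, and Hist1h2aa, Hist1h2af, Hist1h2ah, Hist1h2ai, Hist1h2aj, Hist1h2an, Hist1h2ao, Hist1h2ap, Hist2h2aa1, Hist2h2aa2, Hist2h2ab and Hist2h2ac among the H2A genes. In H2B they are Hist1h2ba, Hist1h2bn, Hist1h2bp, Hist1h2bq, Hist1h2br and Hist2h2bb, in H3 Hist2h3b and Hist2h3c1, and in H4 Hist1h4b and Hist4h4. Those without a count are Hist1h2aa, Hist2h2aa1, Hist2h2aa2, Hist1h2ba, Hist2h2bb, Hist2h3b and Hist2h3c1. The floor of 3 counts equals 0.256 to 0.519 CPM, depending on the library, and covers counting error only. H2A thus had 12 of 20 members at the floor, H2B 6 of 18, H3 2 of 12, H4 2 of 13 and H1 2 of 6. A further 31 members exceeded the floor in some library but reached no more than 18 counts and did not pass the filter on low counts, which left 14 for the tests.

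Many members share sequence with other genes. At least 50% of the 100-base words of the exons occur in other genes for 26 members, among them 14 of the 24 at the floor and none of the 14 tested, for which the share was at most 44.89%. Reads that map to several places are set aside by the counter of STAR, so that the counts of near-identical members are uncertain.

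The length of the annotated 3′ untranslated region went with the counts, which are not scaled to exon length here. It reached at least 200 bases in 25 members, which held 94.1% of the counts, and was shorter or absent in 42, which held 5.76%. Hist1h1c and Hist1h2bc make up most of this split, and of the counts left without them the other 23 long members held 75.1% and the 42 short ones 24.5%. The other 2 are the annotated pseudogenes, with no coding region to measure from. Of the 14 members tested, 12 had the long form, and the median length was 880 bases in the long group and 69.5 in the short one. A poly(A) signal, AATAAA or ATTAAA, stood in the last 40 bases of 16 members, 12 of them in the long group. The groups also differ in other ways. Exon length ran from 614 to 7425 bases in the long group and from 312 to 743 in the short one. At least 50% of the 100-base words were shared with other genes for 4 of the 25 long members and 21 of the 42 short ones. The part of exon length and shared sequence in this split was not tested.

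**Figure D1:**
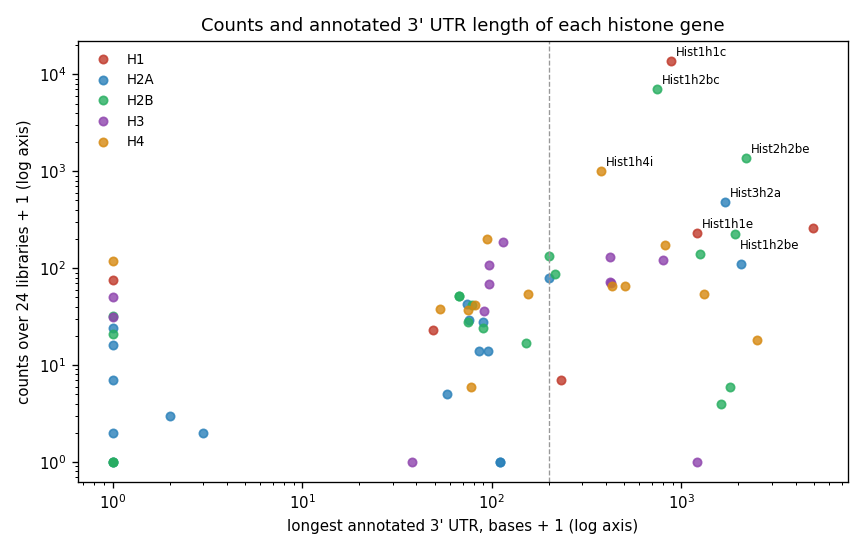
Total counts of each member over 24 libraries against the length of its longest annotated 3′ untranslated region in bases, both with 1 added and on log axes, with 1 point per member, the 2 pseudogenes left out, and a dashed line at 200 bases. The members with the most counts, Hist1h1c and Hist1h2bc, lie to the right of the line.

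Summed over members, the H1, H2A and H2B classes were higher with alectinib than with DMSO on 4 of 4 days in each line, and H3 and H4 went both ways. H1 histones bind the linker DNA between nucleosomes. In EA1 the H1 sum was 18.4, 29.3, 42.4 and 57.8 CPM with DMSO and 82.8, 206, 248 and 266 CPM with alectinib. In EA2 it was 8.24, 17.5, 21.2 and 14.4 CPM against 13.9, 36.4, 99.3 and 43.7 CPM, and in EA3 it was 10.9, 14.9, 26.1 and 49.9 CPM against 30.9, 51.1, 54.1 and 81.6 CPM. Over the 4 days the log2 ratios of H1 averaged 2.43 ± 0.31, 1.41 ± 0.65 and 1.26 ± 0.47 (SD, n = 4 days) for EA1, EA2 and EA3. The DMSO and alectinib libraries of the class did not overlap in EA1 and overlapped in the other two lines.

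H2B, which pairs with H2A in the nucleosome, had mean log2 ratios of 2.21 ± 0.68, 0.77 ± 0.49 and 1.17 ± 0.25 for the lines in the same order (SD, n = 4 days). Its sum ran from 11.1 to 22.2 CPM with DMSO and from 47.6 to 110.6 CPM with alectinib in EA1. EA3 had 22.2 to 44.2 CPM against 47.9 to 89.4 CPM, while in EA2 the day 1 value with alectinib, 14.4 CPM, lay among the DMSO values of 13.7 to 16.5 CPM. H2A held fewer counts, between 1.19 and 4.35 CPM in the 12 DMSO libraries and between 2.14 and 9.97 CPM in the 12 alectinib libraries. Its mean log2 ratios were 1.14 ± 0.47, 0.65 ± 0.22 and 1.20 ± 0.56 in EA1, EA2 and EA3 (SD, n = 4 days).

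H3 and H4 form the tetramer at the core of the nucleosome. In EA1 the H3 sum was 3.87, 5.24, 0.855 and 4.78 CPM with DMSO and 3.57, 6.74, 6.63 and 5.95 CPM with alectinib, far apart on day 3. EA2 had an H3 sum of 2.06, 4.16, 5.41 and 4.55 CPM with DMSO and 1.48, 7.78, 1.24 and 1.91 CPM with alectinib, with the alectinib library of day 2 above and those of days 1, 3 and 5 below DMSO. For EA3 the H3 sum was 4.93, 3.85, 1.06 and 3.295 CPM with DMSO and 3.79, 3.82, 3.200 and 4.003 CPM with alectinib. Of 4 days, 3 were higher with alectinib in EA1, 1 was in EA2 and 2 were in EA3. Its mean log2 ratios were 0.88 ± 1.40, -0.74 ± 1.28 and 0.37 ± 0.86 (SD, n = 4 days). In EA1 the H4 sum was 12.4, 12.7, 4.38 and 17.7 CPM with DMSO and 7.24, 12.7, 12.2 and 15.00 CPM with alectinib. EA2 had an H4 sum of 3.13, 7.28, 7.22 and 6.96 CPM with DMSO and 2.47, 11.1, 3.95 and 5.28 CPM with alectinib. For EA3 the H4 sum was 13.6, 11.3, 2.51 and 6.76 CPM with DMSO and 6.19, 9.81, 4.89 and 7.14 CPM with alectinib, lower with alectinib on days 1 and 2 and higher on days 3 and 5. Its mean log2 ratios were 0.12 ± 0.97, -0.25 ± 0.62 and -0.07 ± 0.87 (SD, n = 4 days), each smaller than its spread. The DMSO libraries of day 3 held the lowest H3 and H4 sums of EA1 and EA3, so that the ratios of that day are the highest of both lines.

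**Figure D2:**
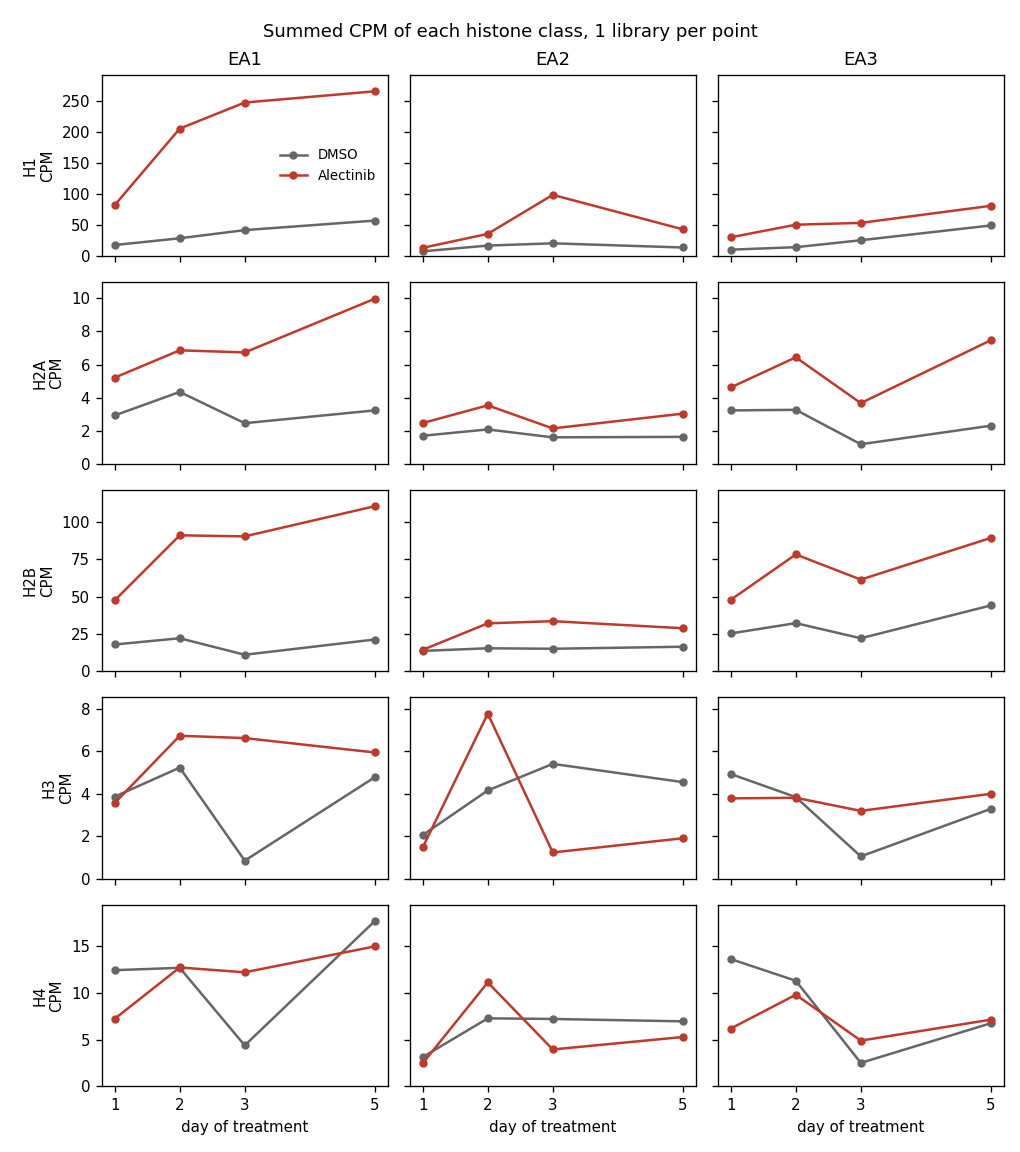
Summed CPM of the members of each histone class by day, line and treatment, with 1 point per library. H1 and H2B with alectinib lie above DMSO on each day of each line, whereas the H3 and H4 lines cross.

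Over the 24 libraries together a single gene held most of the counts of each class other than H3, but not in each group. Hist1h1c held 76.6% to 98.0% of the H1 counts of a group, Hist1h2bc 47.7% to 85.2% of H2B, Hist3h2a 14.7% to 69.0% of H2A and Hist1h4i 19.4% to 71.8% of H4, each with its lowest share in EA2 with DMSO. Without Hist1h1c the mean log2 ratios of H1 for EA1, EA2 and EA3 were 1.16, -0.59 and -0.088, and without Hist1h2bc that of H2B was 1.08, -0.45 and 0.11. H2A without Hist3h2a gave 0.72, 0.16 and 0.80, H3 without Hist1h3c 1.27, -0.71 and 0.62, and H4 without Hist1h4i 0.47, -0.42 and 0.70. The sum of all members had mean log2 ratios of 2.01, 0.91 and 0.99, and without Hist1h1c and Hist1h2bc these were 0.68 ± 0.85, -0.31 ± 0.69 and 0.20 ± 0.31 (SD, n = 4 days). The 42 members with a 3′ untranslated region under 200 bases gave 0.11, -0.35 and 0.22.

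In edgeR's quasi-likelihood fit, each pair of libraries of a line and day formed a block, the effect of alectinib was estimated per line, and p-values were adjusted (Benjamini-Hochberg) over the 14264 genes tested, with a threshold of 0.05. In EA1, 5 of the 14 members tested rose and none fell, where 19.0% of all genes tested rose and 14.6% fell. In EA2, 3 members rose and 1 fell (13.0% and 11.3% of all genes), and in EA3, 3 rose and none fell (17.5% and 15.1%). At an unadjusted p under 0.05 no further member fell in EA1 or EA3, and DESeq2 called none lower there either. A member can pass the filter through the group where it is high, so these counts describe the 14 and not the 69. Hist1h1c, Hist1h2bc and Hist3h2a rose in all 3 lines, Hist1h2be and Hist2h2be rose in EA1, and Hist2h2be fell in EA2.

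**Figure D3:**
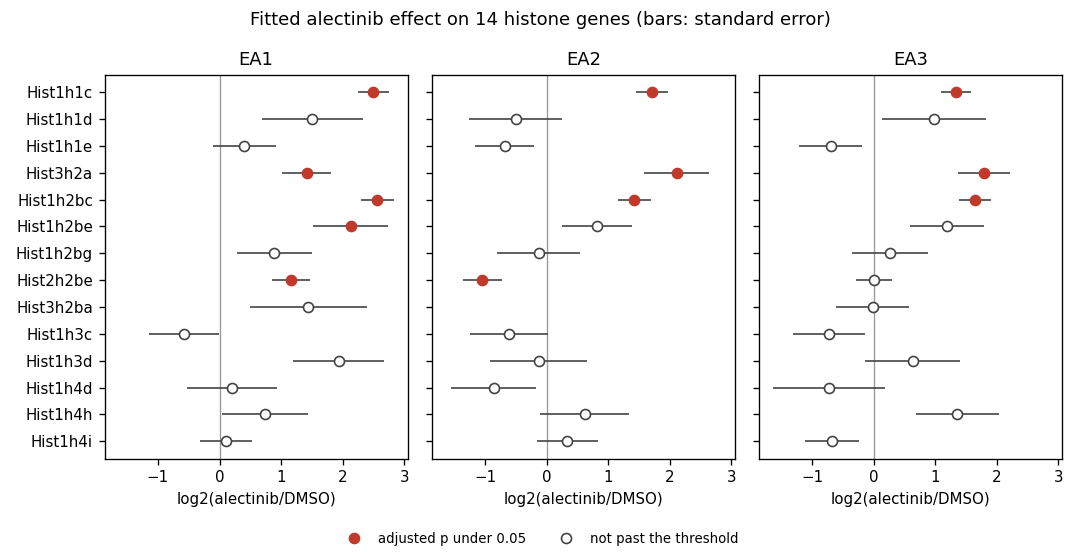
Log2 fold change of alectinib to DMSO for the 14 members tested, in 3 panels for EA1, EA2 and EA3, with bars of 1 standard error and filled points for an adjusted p under 0.05. Hist1h1c, Hist1h2bc and Hist3h2a are above 1 in each line; Hist3h2ba is not drawn in EA2, where its 8 libraries held no count.

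Markers of other cell types moved with the treatment in the lines where Hist1h1c, Hist1h2bc and Hist3h2a rose. The summed level of 3 fibroblast markers, Col1a1, Col3a1 and Pdgfrb, was 9.08 to 43.8 CPM with DMSO and 124.8 to 463.0 CPM with alectinib in EA1, 0.892 to 1.46 and 4.24 to 20.2 CPM in EA2, and 7.74 to 16.8 and 78.2 to 211.1 CPM in EA3. By the same test 3 of the 3 rose in EA1 and EA3, and Col1a1 and Col3a1 rose in EA2. Leukocyte markers (Ptprc, Cd3e, Lyz2) summed to at most 1.08 CPM in any library, and endothelial markers (Pecam1, Cdh5) to at most 6.42 CPM, of which Pecam1 fell in EA2. The 6 epithelial markers summed to 566.6 to 1169 CPM in EA2 with alectinib and to 1811 to 9252 CPM in the other groups. Of them Krt18 fell in all 3 lines and Krt8 in EA2, while Epcam rose in EA1 and Cdh1 in EA2 and EA3. Nkx2-1, a marker of lung epithelium, was at 0 in all EA1 libraries and in the DMSO libraries of EA2 and EA3, and Epcam was at 0 in EA2 with alectinib. The part of these shifts in the histone results was not tested.

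Hist1h1c encodes the linker histone H1.2 and lies on chromosome 13 from 23738808 to 23740367 on the plus strand. EA1 had 17.8, 27.2, 41.9 and 50.5 CPM with DMSO and 81.7, 202, 242 and 261 CPM with alectinib. The range with alectinib began above the highest DMSO value, and Hist1h1c was higher on each later day than on the one before, with either treatment. EA2 had 6.54, 13.97, 16.7 and 10.1 CPM with DMSO and 13.1, 31.3, 97.2 and 40.9 CPM with alectinib, with its peak on day 3. EA3 had 9.51, 12.7, 25.1 and 47.1 CPM with DMSO and 29.4, 49.3, 53.1 and 78.99 CPM with alectinib, so that the DMSO culture of day 5 came close to the alectinib culture of day 2. Alectinib was higher than DMSO on 4 of 4 days in each line. For EA1, EA2 and EA3 in turn, the log2 fold changes ± standard error (SE) were 2.50 ± 0.25 (SE), 1.71 ± 0.26 (SE) and 1.34 ± 0.25 (SE) (adjusted p = 1.71e-05, 0.000366 and 0.00136, edgeR). Without the day block the EA3 value was 1.17 with an adjusted p of 0.104 (edgeR), and the other two calls held.

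The other H1 members were low. Hist1h1d, which encodes H1.3, had 1, 8, 0 and 33 counts with DMSO and 3, 16, 36 and 43 with alectinib in EA1. In EA2 there were 10, 10, 15 and 10 counts with DMSO and 3, 13, 4 and 9 with alectinib, and in EA3 7, 3, 1 and 3 counts with DMSO and 6, 7, 5 and 15 with alectinib. Its counts in EA1 spread from 0 to 33 within DMSO alone, and its log2 fold changes of 1.51 ± 0.82 (SE), -0.50 ± 0.75 (SE) and 0.98 ± 0.84 (SE) did not pass (adjusted p = 0.168, 0.668 and 0.396, edgeR). Hist1h1e, the gene of H1.4, had 3, 5, 3 and 18 counts with DMSO and 6, 10, 9 and 11 with alectinib in EA1. EA2 gave 5, 10, 25 and 32 counts with DMSO and 2, 9, 12 and 13 with alectinib, and EA3 gave 5, 12, 6 and 10 counts with DMSO and 5, 8, 5 and 6 with alectinib. The log2 fold changes of Hist1h1e were 0.40 ± 0.51 (SE), -0.68 ± 0.48 (SE) and -0.70 ± 0.50 (SE), none past the threshold (adjusted p = 0.566, 0.334 and 0.309, edgeR). Hist1h1e shares exon sequence on the same strand with the annotated Hist1h2be, over 25.7% of its exon bases, so reads there cannot be given to 1 of them.

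Among the H2A genes, Hist3h2a on chromosome 11 (58954685 to 58956830, plus strand) had the highest counts. It stood at 1.46, 2.34, 1.92 and 1.55 CPM with DMSO and 4.15, 4.53, 4.04 and 7.04 CPM with alectinib in EA1. EA2 had 0.358, 0, 0.2005 and 0.344 CPM with DMSO and 1.28, 0.884, 0.564 and 1.46 CPM with alectinib, and EA3 had 0.987, 0.583, 0.792 and 1.48 CPM with DMSO and 2.68, 4.14, 1.79 and 5.302 CPM with alectinib. The DMSO and alectinib libraries overlapped in none of the 3 lines. Its log2 fold changes were 1.41 ± 0.40 (SE), 2.11 ± 0.52 (SE) and 1.80 ± 0.42 (SE) in EA1, EA2 and EA3 (adjusted p = 0.0149, 0.00955 and 0.00596, edgeR). The EA1 call was lost without day 1, day 3 or day 5 (adjusted p = 0.0723, 0.0618 and 0.116, edgeR) and the EA2 call without day 5 (0.0524). In EA2 the value rests on 0 to 13 counts per library, and 32.99% of the exon bases of Hist3h2a are shared with Trim17 on the same strand.

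Hist1h2ac and Hist1h2ae, the next H2A members by level, did not pass the filter on low counts. Hist1h2ac had 2, 2, 0 and 0 counts with DMSO and 4, 8, 13 and 14 with alectinib in EA1. EA2 had 3, 1, 2 and 3 counts with DMSO and 2, 3, 6 and 6 with alectinib, and EA3 had 2, 2, 0 and 0 counts with DMSO and 7, 9, 7 and 13 with alectinib. In EA1 and EA3 each alectinib library held more counts than each DMSO library of its line. In a fit with no filter on low counts the log2 fold changes of Hist1h2ac were 2.88, 1.10 and 2.82 in EA1, EA2 and EA3 (adjusted p = 0.0118, 0.715 and 0.0162, edgeR). That fit gave much smaller p-values at similar estimates, so its calls carry this limit. There Hist1h1c in EA1 had 2.44 ± 0.22 (SE) (unadjusted p = 1.91e-29, edgeR). The main fit gave 2.50 ± 0.25 (SE) (unadjusted p = 1.32e-07, edgeR). Hist1h2ac and Hist1h2bc are annotated head to head on chromosome 13, with starts 251 bases apart. Hist1h2ae had 4, 3, 1 and 5 counts with DMSO and 3, 3, 4 and 9 with alectinib in EA1, 5, 5, 0 and 0 counts with DMSO and 3, 0, 1 and 2 with alectinib in EA2 and 8, 7, 1 and 3 counts with DMSO and 4, 4, 4 and 0 with alectinib in EA3, with no order of the treatments.

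Hist1h2bc on chromosome 13 (23684199 to 23692908, plus strand, 2 exons) was the main H2B gene in these libraries. In EA1 it had 10.6, 16.6, 7.48 and 13.4 CPM with DMSO and 38.98, 76.7, 77.7 and 95.8 CPM with alectinib. EA2 had 6.27, 8.32, 6.82 and 7.91 CPM with DMSO and 8.99, 22.4, 29.9 and 23.4 CPM with alectinib, and EA3 had 10.5, 17.5, 12.9 and 31.96 CPM with DMSO and 30.2, 62.5, 52.3 and 76.1 CPM with alectinib. The treatments did not overlap in EA1 and EA2, and in EA3 the DMSO library of day 5 reached above the alectinib library of day 1. The log2 fold changes were 2.57 ± 0.27 (SE), 1.43 ± 0.27 (SE) and 1.65 ± 0.26 (SE) in EA1, EA2 and EA3 (adjusted p = 2.37e-05, 0.00184 and 0.000423, edgeR).

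Hist2h2be on chromosome 3 (96221119 to 96223738, plus strand) moved in opposite directions in EA1 and EA2. It had 4.81, 2.56, 2.35 and 3.23 CPM with DMSO and 5.89, 8.94, 5.903 and 7.71 CPM with alectinib in EA1, and alectinib lay above DMSO with no overlap. In EA2 it had 5.55, 4.46, 4.91 and 5.499 CPM with DMSO and 3.95, 2.83, 1.47 and 2.14 CPM with alectinib, and alectinib lay below DMSO with no overlap. EA3 had the highest levels, 9.06, 11.4, 7.39 and 7.91 CPM with DMSO and 13.8, 10.03, 4.99 and 8.76 CPM with alectinib, with the treatments mixed. The log2 fold changes were 1.16 ± 0.31 (SE) in EA1 (adjusted p = 0.0115, edgeR), -1.04 ± 0.32 (SE) in EA2 (adjusted p = 0.0276, edgeR) and 0.01 ± 0.30 (SE) in EA3 (adjusted p = 0.99, edgeR). Each of the EA1 and EA2 calls was lost when day 2, day 3 or day 5 was left out, with adjusted p-values of 0.0587 to 0.108 in EA1 and 0.0601 to 0.154 in EA2 (edgeR) and unchanged signs.

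Hist1h2be had 0.209, 0.557, 0.214 and 0.517 CPM with DMSO and 0.772, 1.22, 2.17 and 2.76 CPM with alectinib in EA1. EA2 had 0.716, 0.446, 0.802 and 0.773 CPM with DMSO and 0.7901, 2.12, 1.13 and 1.24 CPM with alectinib, and EA3 had 0.538, 0.3499, 0.6597 and 0.494 CPM with DMSO and 0.185, 1.96, 1.79 and 1.73 CPM with alectinib. The treatments separated in EA1 and overlapped in EA2 and EA3. The gene rose in EA1, with 2.13 ± 0.61 (SE) on the log2 scale (adjusted p = 0.016, edgeR), a call lost without day 3 or day 5 (adjusted p = 0.136 and 0.0902). In EA2 and EA3 it had 0.82 ± 0.57 (SE) and 1.19 ± 0.60 (SE) (adjusted p = 0.325 and 0.151, edgeR), and without day 1 the EA3 value passed (adjusted p = 0.0444). It overlaps Hist1h1e over 11.2% of its exon bases. The other H2B members tested, Hist1h2bg and Hist3h2ba, had log2 fold changes of 0.89 ± 0.61 (SE) and 1.44 ± 0.95 (SE) in EA1 (adjusted p = 0.275 and 0.267, edgeR), and Hist3h2ba had no count in the 8 EA2 libraries. Hist1h2bj, below the filter and named after its values were seen, was lower with alectinib in EA1 with no overlap. It had 5, 6, 3 and 3 counts with DMSO and 1, 0, 1 and 2 with alectinib there. In the fit with no filter its log2 fold change in EA1 was -2.19 (adjusted p = 0.221, edgeR).

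**Figure D4:**
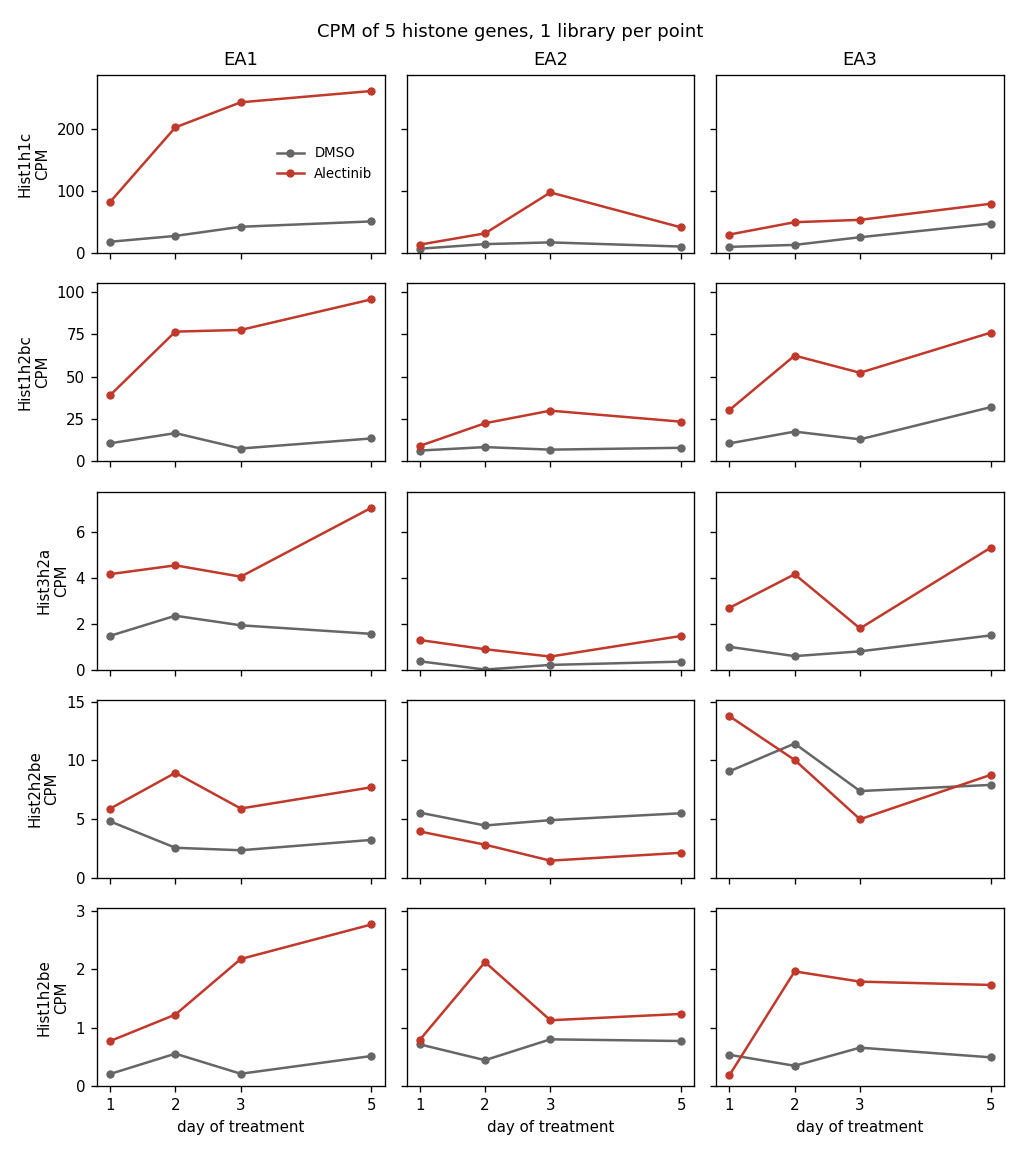
CPM of Hist1h1c, Hist1h2bc, Hist3h2a, Hist2h2be and Hist1h2be by day, line and treatment, with 1 point per library. Hist2h2be with alectinib lies above DMSO in EA1 and below it in EA2, and Hist1h1c with alectinib reached 260.7 CPM in EA1 on day 5.

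None of the H3 and H4 members tested passed in any line. Hist1h3c had 7, 22, 3 and 10 counts with DMSO and 4, 11, 6 and 7 with alectinib in EA1. EA2 gave 2, 7, 11 and 6 counts with DMSO and 2, 9, 1 and 3 with alectinib, and EA3 gave 24, 14, 1 and 6 counts with DMSO and 18, 4, 2 and 6 with alectinib. The counts of the days of a group spread widely and the treatments overlapped in each line. The log2 fold changes were -0.58 ± 0.56 (SE), -0.61 ± 0.63 (SE) and -0.73 ± 0.58 (SE) (adjusted p = 0.444, 0.522 and 0.361, edgeR). Hist1h3d had 4, 4, 0 and 2 counts with DMSO and 5, 11, 11 and 17 with alectinib in EA1, 2, 1, 10 and 5 counts with DMSO and 2, 3, 3 and 4 with alectinib in EA2 and 3, 2, 4 and 2 counts with DMSO and 1, 6, 5 and 13 with alectinib in EA3. In EA1 each alectinib library of Hist1h3d held more counts than each DMSO library, with a log2 fold change of 1.93 ± 0.74 (SE) and an adjusted p of 0.0586 (edgeR). It passed without day 1 (adjusted p = 0.0492) and without the day block (0.0440, edgeR). In EA2 and EA3 Hist1h3d had -0.13 ± 0.79 (SE) and 0.63 ± 0.77 (SE). Hist2h3c2, an H3 gene below the filter, passed in EA1 in the fit with no filter and its smaller p-values (log2 fold change 2.63, adjusted p = 0.0420, edgeR). It had 0, 1, 3 and 1 counts with DMSO and 7, 5, 11 and 15 with alectinib in EA1, with no overlap between the treatments, and 61.6% of the 100-base words of its exon occur in other genes, so that its counts are uncertain. Hist1h3e, not tested, had 6, 7, 1 and 7 counts with DMSO and 8, 5, 4 and 10 with alectinib in EA1, 5, 4, 17 and 10 counts with DMSO and 1, 10, 4 and 1 with alectinib in EA2 and 10, 4, 0 and 1 counts with DMSO and 4, 2, 1 and 6 with alectinib in EA3.

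Hist1h4i, the H4 gene with the highest mean level (chromosome 13, 22040636 to 22041362, minus strand), had 11.2, 8.13, 3.21 and 7.24 CPM with DMSO and 5.11, 8.57, 7.56 and 8.71 CPM with alectinib in EA1. EA2 had 0.896, 2.82, 0.601 and 0.945 CPM with DMSO and 0.593, 1.59, 1.58 and 2.36 CPM with alectinib, and EA3 had 10.7, 6.998, 1.58 and 5.11 CPM with DMSO and 3.97, 4.25, 1.69 and 3.68 CPM with alectinib. On day 1 alectinib was lower than DMSO in each line, and on day 3 it was higher in each line. The log2 fold changes over days were 0.10 ± 0.42 (SE), 0.34 ± 0.49 (SE) and -0.68 ± 0.43 (SE) (adjusted p = 0.871, 0.654 and 0.25, edgeR). Hist1h4h had 1, 10, 2 and 11 counts with DMSO and 5, 4, 13 and 22 with alectinib in EA1, 4, 2, 11 and 4 counts with DMSO and 4, 16, 5 and 4 with alectinib in EA2 and 4, 9, 3 and 3 counts with DMSO and 4, 25, 16 and 18 with alectinib in EA3. In EA3 the alectinib libraries of days 2, 3 and 5 held more counts of Hist1h4h than each DMSO library. Its log2 fold changes were 0.74 ± 0.70 (SE), 0.62 ± 0.72 (SE) and 1.36 ± 0.68 (SE) (adjusted p = 0.432, 0.574 and 0.143, edgeR). Hist1h4d had 2, 13, 3 and 5 counts with DMSO and 6, 6, 5 and 9 with alectinib in EA1, 12, 7, 20 and 27 counts with DMSO and 7, 13, 3 and 7 with alectinib in EA2 and 10, 8, 0 and 0 counts with DMSO and 3, 2, 1 and 3 with alectinib in EA3. Its EA3 DMSO libraries of days 3 and 5 had no count. For Hist1h4d the log2 fold changes were 0.20 ± 0.73 (SE), -0.86 ± 0.69 (SE) and -0.72 ± 0.92 (SE) (adjusted p = 0.853, 0.4 and 0.577, edgeR).

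The EA2 alectinib library of day 2, the shallowest, stood apart in the low members. It held 7.78 CPM of H3 against 1.24 to 1.91 CPM on the other days of its group, and its 42 members with a short 3′ untranslated region summed to 17.3 CPM, against 1.98 to 15.4 CPM in the other 23 libraries. Rn7sk, the 7SK RNA, which carries no poly(A) tail and was chosen after its values were seen, had 93.7 CPM there and 0.732 to 30.5 CPM in the other 23. The part of RNA without a poly(A) tail in these results was not tested. Without the EA2 day 2 pair 17 members passed the filter, and 6 of them were called in EA1, 4 in EA2 and 4 in EA3, where 32.8%, 18.6% and 30.4% of the 14674 genes tested were.

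The size of the alectinib effect was compared between the 3 lines in a test with 2 degrees of freedom. Of the 14 members 1 passed, Hist2h2be (adjusted p = 0.0239, edgeR), where 6.84% of all genes did. Its effect was different by -2.20 on the log2 scale in EA2 minus EA1 and by -1.15 in EA3 minus EA1. The call was lost without day 2, 3 or 5 (adjusted p = 0.103, 0.159 and 0.161, edgeR). For Hist1h1c and Hist1h2bc, with effects numerically largest in EA1, the adjusted p-values of the difference were 0.105 and 0.123 (edgeR). Both passed in the fit with no filter on low counts (adjusted p = 0.00944 and 0.0284, edgeR), which gave much smaller p-values than the main fit at similar estimates.

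The change of the effect over time was fitted as a slope per doubling of days, averaged over lines. None of the 14 members passed at an adjusted p of 0.05 by edgeR or by DESeq2, where 3.02% of all genes did by edgeR. At an unadjusted p under 0.05 there was 1, Hist1h4i, with a slope of 0.74 ± 0.25 (SE, unadjusted p = 0.0126, adjusted p = 0.12, edgeR).

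DMSO cultures changed over days as well. In the 12 DMSO libraries 8 members could be tested, and 2 of them rose per doubling of days, where 7.75% of all genes rose and 7.61% fell. Hist1h1c rose by 0.67 ± 0.13 (SE) on the log2 scale (adjusted p = 0.00839, edgeR) and Hist1h1e by 0.98 ± 0.25 (SE) (adjusted p = 0.0248, edgeR). Both calls were lost without day 1, a fit in which edgeR called none of 12986 genes and the slopes were 0.57 and 0.86 (unadjusted p = 0.0347 and 0.0984), and with the day 7 pair included (adjusted p = 0.147 and 0.0722). That of Hist1h1e was also lost without day 2 or 5 (adjusted p = 0.0689 and 0.363, edgeR). Between lines, 5 of the 8 differed in DMSO, against 39.7% of all genes. That fit had no term for the day, so a trend over days counts as spread in it. Hist3h2a had its lowest DMSO levels in EA2, with a log2 difference of -2.87 (EA2 minus EA1, adjusted p of the 3-line test = 0.00277, edgeR), and so did Hist1h4i, with -2.58 (adjusted p = 0.0111). Hist2h2be was highest in EA3, with a log2 difference of 1.47 (EA3 minus EA1, adjusted p = 0.00401, edgeR). Hist1h2bc and Hist1h1c also passed (adjusted p = 0.0211 and 0.0495, edgeR), with log2 differences of -0.75 and -1.58 for EA2 minus EA1. The Hist1h1c call held in 2 of 10 alternatives (adjusted p from 0.0202 to 0.137). Hist1h2bc lost its call without day 2 or 5 and with the day 7 pair (0.0871, 0.133 and 0.191), Hist1h4i without day 1 or 5 and with that pair (0.0674, 0.0762 and 0.0516), and Hist2h2be without day 2 and with that pair (0.0735 and 0.0753, edgeR). Hist3h2a kept its call in the 9 alternatives that gave a value.

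Promoters, taken as 250 bases before to 50 bases after the RefSeq start of each gene in GRCm38.p6, were matched for 61 of the 69 members. They are shown for the highest H1 and H2A members, which rose together in all 3 lines. Capitals mark CCAAT on either strand, where ATTGG is its reverse, AAACACA, an element known from H1 gene promoters, and ATGCAAAT, the octamer known from H2B promoters.

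Hist1h1c (chr13:23738557-23738856, plus strand): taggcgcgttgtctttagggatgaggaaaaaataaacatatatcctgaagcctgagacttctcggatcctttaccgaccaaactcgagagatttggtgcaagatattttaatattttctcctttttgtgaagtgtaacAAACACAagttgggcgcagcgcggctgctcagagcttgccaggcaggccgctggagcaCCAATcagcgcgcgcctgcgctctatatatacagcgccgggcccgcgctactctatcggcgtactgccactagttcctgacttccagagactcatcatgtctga
Hist3h2a (chr11:58954435-58954734, plus strand): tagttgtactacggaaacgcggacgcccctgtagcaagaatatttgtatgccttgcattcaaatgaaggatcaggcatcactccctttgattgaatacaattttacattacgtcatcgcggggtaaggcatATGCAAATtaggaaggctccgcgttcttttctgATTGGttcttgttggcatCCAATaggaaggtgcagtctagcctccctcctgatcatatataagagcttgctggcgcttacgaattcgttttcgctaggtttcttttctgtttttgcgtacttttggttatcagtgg

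The Hist1h1c window holds 1 CCAAT and 1 AAACACA, and that of Hist3h2a holds 2 CCAAT, 1 on each strand, and 1 ATGCAAAT. Neither holds TATAAA. Searched on both strands, CCAAT occurs in 85.2% of the member promoters and 37.9% of all 27025 promoters. By class it is in 100.0% of the H1, H2A, H2B and H3 promoters but in 25.0% of the H4 promoters. AAACACA occurs in 14.8% of member promoters and 7.14% of all, with 83.3% of the H1 promoters. ATGCAAAT occurs in 21.3% of member promoters and 1.75% of all, with 41.2% of H2A and 37.5% of H2B promoters, and TATAAA in 57.4% and 14.2%. These are matches of letters and not measured binding. The promoters of Hist1h2bc and Hist2h2be were among the 8 without a match.

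Genes that work with the replication-dependent histones were listed by role. DNA replication genes fell where they passed. Of 22 tested, 12, 9 and 8 fell in EA1, EA2 and EA3, where 14.6%, 11.3% and 15.1% of all genes did, and none rose, at median log2 fold changes of -0.79, -0.82 and -0.72, against 0.06, 0 and 0.07 over all genes tested. Pcna, the sliding clamp of the polymerases, had 207 ± 40.2 CPM with DMSO and 98.8 ± 21.7 CPM with alectinib in EA1 (SD, n = 4 days) and log2 fold changes of -1.07 ± 0.21 (SE), -0.89 ± 0.21 (SE) and -1.16 ± 0.21 (SE) in EA1, EA2 and EA3 (adjusted p = 0.00204, 0.00764 and 0.00128, edgeR). Mcm7 and Mcm6, subunits of the replicative helicase, had log2 fold changes of -0.83 ± 0.26 (SE) and -0.67 ± 0.20 (SE) in EA1 (adjusted p = 0.0237 and 0.0216, edgeR), and in EA3 Mcm7 passed and Mcm6 did not (-0.82 ± 0.26 (SE) and -0.36 ± 0.20 (SE), adjusted p = 0.0252 and 0.189). Rrm1, the large subunit of ribonucleotide reductase, had values from 0.05 ± 0.38 (SE) to 0.33 ± 0.38 (SE) and passed in no line (adjusted p = 0.941, 0.553 and 0.539, edgeR). In DMSO alone, 19 of the 22 fell per doubling of days, where 7.61% of all genes did, with a median of -0.65. The slope of the alectinib effect was positive and past the threshold for 4 of the 22, Ccne1, Ccne2, Rrm1 and Tyms, and for 1.11% of all genes.

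Histone gene transcription and 3′ end processing factors showed 1 rise and 4 falls of 14 in EA1, 3 falls in EA2 and 3 in EA3, where 14.6%, 11.3% and 15.1% of all genes fell and 19.0% rose in EA1, with medians of -0.43, -0.22 and -0.19. Slbp, named for its role and not by the rule on levels, had log2 fold changes of -0.61 ± 0.24 (SE), -0.31 ± 0.23 (SE) and -0.59 ± 0.23 (SE) (adjusted p = 0.0606, 0.363 and 0.0673, edgeR) and fell over days in DMSO, with a slope of -0.40 ± 0.10 (SE) per doubling (adjusted p = 0.0185). Among the 4 most abundant of the list, Cpsf3, the nuclease that cuts the histone pre-mRNA, had -0.42 ± 0.12 (SE) in EA2 and -0.41 ± 0.12 (SE) in EA3 (adjusted p = 0.0204 and 0.0191, edgeR). Sympk, Ncbp1 and Cpsf2 passed in no line, with log2 fold changes between -0.50 and 0.17. Eri1, a nuclease that trims histone mRNA ends, fell in all 3 lines and was named after its values were seen.

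Histone chaperones and supply factors gave 3 falls of 14 in EA1, 3 in EA2 and 5 falls and 1 rise in EA3, against 14.6%, 11.3% and 15.1% of all genes that fell and 17.5% that rose in EA3 (medians -0.44, -0.40 and -0.38). Nap1l1, a chaperone of H2A and H2B, fell in EA1 and EA3 (-1.17 ± 0.13 (SE) and -0.86 ± 0.13 (SE), adjusted p = 4.36e-05 and 0.000413, edgeR) and had -0.20 ± 0.13 (SE) in EA2. Rbbp7, a histone-binding subunit of several chromatin complexes, fell in EA2 (-0.47 ± 0.14 (SE), adjusted p = 0.0264, edgeR). Rbbp4 and Hjurp passed in no line. Replacement and variant histones, most of which have mRNAs with poly(A) tails that are made outside S phase too, while H2afx is also made as a tailless form, gave 1 rise and 2 falls of 11 in EA1, 4 falls in EA2 and 6 in EA3, where 14.6%, 11.3% and 15.1% of all genes fell and 19.0% rose in EA1, with medians of -0.15, -0.24 and -0.53. H2afz, the gene of H2A.Z, fell in EA1 and EA3 (-0.69 ± 0.19 (SE) and -0.79 ± 0.19 (SE), adjusted p = 0.0114 and 0.00606, edgeR). H3f3a rose in EA1 (0.82 ± 0.16 (SE), adjusted p = 0.00172, edgeR), while H3f3b, which encodes the same H3.3 protein, had -0.06 ± 0.12 (SE) there and fell in EA3 (-0.35 ± 0.12 (SE), adjusted p = 0.0368). H1f0, the replacement linker histone, had 309 ± 100.1 CPM with DMSO and 317 ± 41.8 CPM with alectinib in EA1 (SD, n = 4 days), where Hist1h1c rose, and fell in EA3 (-0.63 ± 0.20 (SE), adjusted p = 0.0255, edgeR).

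**Figure D5:**
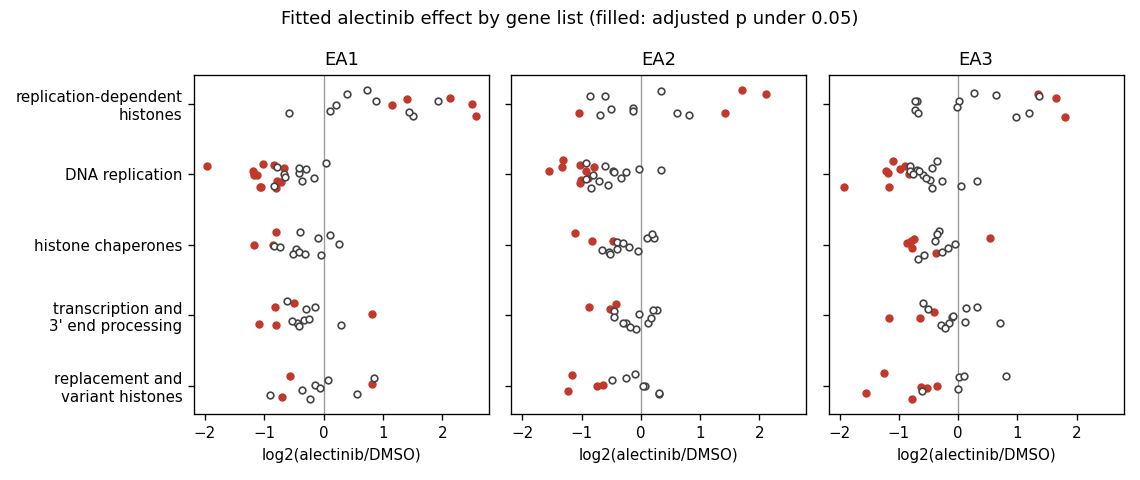
Log2 fold change of alectinib to DMSO of the genes of each list in EA1, EA2 and EA3, with 1 point per gene tested, filled where the adjusted p was under 0.05. Every filled point of the DNA replication list lies below 0, whereas those of the replication-dependent histones lie above 0 except Hist2h2be in EA2.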

How the data were processed

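RNA of 3 murine lung cancer lines was sequenced after poly(A) selection with a stranded kit, in 26 libraries, of which 24 were used. Per the labels and the methods of the study, the authors checked reads with FastQC, trimmed adapters with bbduk, mapped to mm10 with STAR and deposited its raw counts per gene. The annotation release and the strand column are not given in the sources used here. The 24 rows with a date in place of a gene symbol, 0.129% to 0.201% of a library's counts, were left out.

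Tests were run with edgeR 4.0.16 and limma 3.58.1 under R 4.3.3, using TMM factors, filterByExpr by line and treatment, robust quasi-likelihood fits, and Benjamini-Hochberg adjustment over all genes tested with a threshold of 0.05. The fit had 12 line-day blocks and an alectinib effect per line. DMSO and alectinib libraries of a line share the day by their labels, and their deviations from group means correlated between -0.29 and 0.54. DMSO libraries alone (12) were fitted for a slope per doubling of days and, with no term for the day, for line differences. Class sums and their log2 ratios were computed in Python 3.11.15 without a pseudocount and were not tested. The scripts were tested on simulated data. Levels are CPM, and library totals of 5780062 to 11732401 counts limit members near the floor of 3 counts.

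The members and the gene lists were chosen with earlier results of these data known. The text names the 3 members of each class with the highest mean CPM, every member past a threshold, every member at the floor, and the 4 genes of each list with the highest mean CPM. Alternatives were DESeq2 1.42.0, DESeq2 size factors, library size alone, a fit per line, a fit without the block, all 26 libraries, leaving out each day, no filter on low counts and a minimum of 10 counts per library. Leaving out the EA2 day 2 pair was added after seeing the data. Transcripts and exons are those of GENCODE M21, and promoters those of RefSeq. Part of the genotype of the lines is not reported here.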

Additional observations from a re-analysis of the deposited data

Results flagged for a closer look

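In 120 groups of 4 days, covering the classes and the members named, the highest or lowest library was set against the others by Dixon's 95% limit, which chance passes in about 1 in 20 groups. The EA2 alectinib library of day 2 stood above the other days of its group in the H3 sum (7.78 CPM against 1.24 to 1.91), in Hist1h3c (1.59 against 0.113 to 0.337 CPM) and in Hist1h4h (2.83 against 0.395 to 0.564 CPM). In EA2 with DMSO the H4 sum of day 1 was low (3.13 against 6.96 to 7.28 CPM), Hist1h4h of day 3 was high (1.10 against 0.297 to 0.358 CPM), and Hist1h4i of day 2 was high (2.82 against 0.601 to 0.945 CPM). Hist1h1e was high in EA1 with DMSO on day 5 (2.33 against 0.314 to 0.557 CPM) and low in EA2 with alectinib on day 1 (0.198 against 1.35 to 1.59 CPM). In EA3 with alectinib, Hist1h2be was low on day 1 (0.185 against 1.73 to 1.96 CPM) and Hist1h2ae had 0 CPM on day 5 (0.370 to 0.436 on the other days). Hist3h2a was high in EA1 with alectinib on day 5 (7.04 against 4.04 to 4.53 CPM).

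Hist2h2be is the member whose alectinib effect differed between lines in the test of the difference itself (adjusted p = 0.0239, edgeR), with a rise in EA1 and a fall in EA2.

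The pair labelled EA3 day 7 entered the comparisons in the alternative with all 26 libraries and not otherwise. Its alectinib library held 88.6 CPM of H1, 4.74 CPM of H2A and 66.9 CPM of H2B, and its DMSO library held 13.2, 0.378 and 6.92 CPM. The H2A and H2B levels of that DMSO library lay below those of the EA2 and EA3 DMSO libraries of the other days.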

How the results depend on the processing

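No call changed direction under the alternatives run. With at least 10 counts in every library, 3 members were tested and 3 were called in EA1 in place of 5, 1 over DMSO days in place of 2 and 2 between lines in DMSO in place of 5. Over all genes that setting called 36.1%, 18.2% and 31.2% in these 3 tests. Without a filter 62 members were tested, and 3 of them (Hist1h1c, Hist1h2bc and Hist2h2be) differed between lines in their alectinib effect in place of 1 of 14. In DMSO 9 of the 62 differed in place of 5 of 8. Over all genes 8.08% and 21.3% did in that fit. DESeq2 called 2 between lines, and over all genes it called 1963 between lines in place of 976 and 1238 slopes in place of 431. With all 26 libraries none was called over DMSO days and 1 between lines in DMSO, where 6.09% and 30.1% of all genes were. Leaving out each day in turn gave 2 to 6 calls in EA1, 2 to 4 in EA2, 3 to 5 in EA3, 0 to 1 between lines, 0 to 2 over DMSO days and 2 to 4 between lines in DMSO, against 5, 4, 3, 1, 2 and 5. These fits tested 12 to 16 members (8 or 9 in DMSO) in place of 14 and 8, and over all genes they called 19.5% to 28.2% in EA1, 14.9% to 18.6% in EA2 and 19.6% to 27.1% in EA3 in place of 33.6%, 24.4% and 32.6%, and 1.47% to 5.51% between lines, 0% to 21.6% over DMSO days and 25.1% to 33.3% between lines in DMSO. The lowest count came without day 3 or 5 in EA1, without day 5 in EA2, without day 1 over DMSO days, and without day 2 or 5 between lines in DMSO, and the causes were not tested. Without the day block there were 6, 4 and 2 calls in EA1, EA2 and EA3 and 1 between lines, where 31.0%, 20.2%, 29.2% and 5.66% of all genes were called. The Hist1h1c call in EA3 was the one lost. Leaving out the top member moved the H1 mean log2 ratio to 1.16, -0.59 and -0.088 in EA1, EA2 and EA3, H2A in EA2 to 0.16, and H2B to 1.08, -0.45 and 0.11. It moved H4 to 0.47, -0.42 and 0.70, where the EA3 value had been -0.07. Scaling by library size alone shifted the log2 ratios on average by 0.09, -0.05 and 0.12 in EA1, EA2 and EA3 and moved no count of called members past 1.5 times. Of 396 values of single genes for the alectinib effect per line, 380 stayed on their side of the threshold, 13 lost their call and 3 gained one. Of the calls in the other tests, the alectinib effect between lines was lost in 3 of 12 values, the levels between lines in DMSO in 16 of 48 and the slopes in DMSO in 6 of 19. Low counts leave 55 of the 69 members without a test, and a member at the floor is not shown to be unchanged. The part of depth, poly(A) selection and shared sequence in these low counts was not tested.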

Other observations

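Hist1h4n and Hist1h4m, a pair of H4 genes chosen after their values were seen, had 18 and 15 counts in the EA1 DMSO library of day 5 and at most 4 in each of the other 23 libraries used. In the same library Hist1h1e had 18 counts against 3 to 5 on the other DMSO days of EA1. In the pair labelled EA3 day 7, Hist1h1c had 96 counts with DMSO and 1007 with alectinib, Hist1h2bc 28 and 713, Hist3h2a 0 and 23, and Hist2h2be 19 and 21.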
